A study of Mus musculus with 13 samples.

Results

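The laminin-332 and epithelial integrin genes described here encode 2 chains of the basement membrane protein laminin-332, Lama3 (alpha 3 chain) and Lamb3 (beta 3 chain), and 4 chains of its receptors, Itga6, Itgb4, Itga3 and Itgb1. Laminin-332 is laid down by epithelial cells beneath their basal surface. The integrin made of Itga6 and Itgb4 grips it there and links it through hemidesmosomes to the keratin filaments inside the cell, whereas the integrin made of Itga3 and Itgb1 binds the same laminin and couples it to the actin cytoskeleton. In the intestine the gut epithelium makes these proteins above the connective tissue of the villus core, and laminin-332 is known from epithelia that move or invade as well as from resting ones.

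Members were chosen by name: a probe set counted if the platform annotation gave it exactly 1 symbol equal to a member, and the brightest of a gene's probe sets, by its mean level on the 13 arrays, stood for the gene. All 6 genes had such a probe set, 14 in total of 20380 with 1 symbol, so that 6 of 12393 tested genes are described. Lamb3, Lama3 and Itgb4 had 1 probe set each, Itga6 had 2, Itga3 had 3 and Itgb1 had 6. Each of the 6 lay above the 30th percentile of mean level over all genes. On GRCm38.p6 the RefSeq genes lie at chr1:193294353-193343878 (Lamb3), chr18:12333417-12583013 (Lama3), chr2:71786886-71858427 (Itga6), chr11:115974725-116008412 (Itgb4), chr11:95044475-95076844 (Itga3) and chr8:128685654-128733579 (Itgb1), each span covering all exons and introns.

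RNA came from the duodenum of wild-type mice and of mice labelled K-Ras mutant (ViRas in the design text), of mixed strain background, which the series title describes as carrying an oncogenic activation of K-Ras. Feeding began at 5 weeks of age and lasted 22 weeks, on normal diet (2 wild-type and 3 mutant arrays), high-fat diet (2 and 2) or high-fat diet with added butyrate, which bacteria of the colon release from dietary fibre (1 and 3). The exact allele, the cell type in which it was active and the pooling of animals are not given in the sources used here. Levels are the deposited RMA values, given as log2, so that a difference of 1 is 2-fold, and they compare arrays for 1 probe set but not different genes.

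The arrays of each diet carry their own range of identifier numbers, so that diet and array series cannot be told apart, while both genotypes of a diet lie in 1 series. Of 12 intestinal epithelium markers 11 were measured, and their mean level lay between 11.8 and 12.2 on all arrays. It was 12.01 to 12.16 on the mutant high-fat arrays, above the mutant normal-diet arrays (11.89 to 11.96) and the mutant butyrate arrays (11.83 to 11.95). Single markers ranged more widely, most of all the intestinal transcription factors Cdx2 (7.98 to 9.58) and Pdx1 (6.65 to 8.24). How far the mean of the 11 markers follows the share of epithelium was not tested, here or where it serves as a covariate. Of 8 squamous markers, whose epithelium is rich in laminin-332, 6 were measured, with a mean of 3.92 to 4.30 and the basal cell factor Trp63 at 3.60 to 3.99. Markers of neighbouring organs varied from array to array. The mean of 8 measured acinar pancreas genes (of 10) ran from 5.05 to 13.6, and that of 6 measured gastric and Brunner gland genes (of 8) from 5.67 to 11.3.

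RefSeq start-site windows, from 250 bases before a transcript's start to 50 bases after it, were searched for Lamb3, Itga3 and Itgb1. For each of these genes 1 window is shown because they were higher on high-fat diet. No window of the other members was searched, and for Lama3 this does not mean that it has none. Lamb3 and Itga3 had 2 windows each, and the one whose start site lies farther upstream is shown. Both Lamb3 start sites, at 193301994 and 193302243, lie inside its RefSeq gene span, which begins at 193294353. The upstream end of that span was therefore not searched. Capitals mark matches on either strand to 5 searched motifs: TGANTCA (AP-1), CCGGAAGT (an ETS core), GGGCGG (a GC box bound by SP1), TATAAA (the TATA box) and CANNTG (the E-box). The windows are those of GRCm38.p6, at chr1:193301744-193302043 on the plus strand for Lamb3, chr11:95076665-95076964 on the minus strand for Itga3 and chr8:128685404-128685703 on the plus strand for Itgb1.
Lamb3: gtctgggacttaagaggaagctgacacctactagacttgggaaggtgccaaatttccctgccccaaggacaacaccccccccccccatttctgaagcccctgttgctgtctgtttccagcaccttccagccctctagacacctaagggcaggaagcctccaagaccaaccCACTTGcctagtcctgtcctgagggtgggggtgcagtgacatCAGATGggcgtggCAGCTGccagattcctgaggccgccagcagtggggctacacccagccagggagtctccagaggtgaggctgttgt
Itga3: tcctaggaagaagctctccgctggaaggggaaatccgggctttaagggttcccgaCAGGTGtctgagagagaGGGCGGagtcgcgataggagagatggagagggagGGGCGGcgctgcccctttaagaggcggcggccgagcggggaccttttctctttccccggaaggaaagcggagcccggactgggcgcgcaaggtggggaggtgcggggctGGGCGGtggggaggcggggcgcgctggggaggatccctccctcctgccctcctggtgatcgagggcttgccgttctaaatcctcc
Itgb1: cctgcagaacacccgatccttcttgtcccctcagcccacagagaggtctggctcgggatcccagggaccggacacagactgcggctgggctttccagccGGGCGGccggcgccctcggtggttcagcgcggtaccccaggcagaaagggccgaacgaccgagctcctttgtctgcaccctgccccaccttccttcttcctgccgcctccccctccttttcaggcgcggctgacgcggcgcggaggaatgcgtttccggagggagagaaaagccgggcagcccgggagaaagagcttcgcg
The Lamb3 window held 3 E-boxes and none of the other motifs. The Itga3 window held 3 GC boxes and 1 E-box, and the Itgb1 window 1 GC box. The Lamb3 window not shown held 2 E-boxes, and the Itga3 window not shown held 1 GC box, 1 E-box and 1 AP-1 match, the only AP-1 match in these 5 windows. Among all 32851 windows of 300 bases in the table, 72.3% held an E-box, 35.7% a GC box, 13.6% a TATA box, 7.81% an AP-1 motif and 3.89% the ETS core. A match is a run of letters in these windows and not a measured site.

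Lamb3 was higher in mutant than in wild-type duodenum on each of the 3 diets. On normal diet it stood at 6.46 and 6.50 on the wild-type arrays and at 7.72, 7.80 and 7.93 on the mutant arrays. On high-fat diet the wild-type values were 7.66 and 7.62 and the mutant values 9.05 and 8.56. With butyrate the single wild-type array read 7.27 and the mutant arrays 7.99, 8.16 and 7.73. In no diet did a mutant array fall to the level of a wild-type array, as held for 1.80% of all genes in this direction.

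With diet as a term in a limma model of all 13 arrays, Lamb3 was 2.16-fold higher in mutants (log2 difference 1.11 ± 0.12 SE, adjusted p = 0.0035, 8 mutant and 5 wild-type arrays). It was 1 of 6 members past the threshold of 0.05, against 1.02% of all genes tested, and had the smallest p of all 12393 genes. The members were chosen with earlier results of these data known, so neither this share nor this rank is an independent result. An exact permutation test of genotype within diets gave a two-sided p = 0.00417, the smallest that 240 arrangements allow. The call held in each of the 13 fits that left out 1 array, with differences of 1.05 to 1.26 and adjusted p up to 0.0279. Over all diets the acinar pancreas genes were lower in mutants (median log2 difference -1.98, 0 of 8 past the threshold). The gastric and Brunner gland genes were higher (1.23, 0 of 6). These directions did not hold in each diet. The acinar median was 2.01 on normal diet, -4.68 on high-fat diet and -5.13 with butyrate. The gastric and Brunner median was 3.13, -0.72 and 1.33 in the same order. With the acinar mean as a covariate Lamb3 differed by 1.19 (adjusted p = 0.000455), with the gastric and Brunner mean by 1.09 (0.0072) and with the epithelial mean by 1.11 (0.03). In bulk tissue a larger share of expressing cells and more RNA per cell cannot be told apart.

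**Figure D1:**
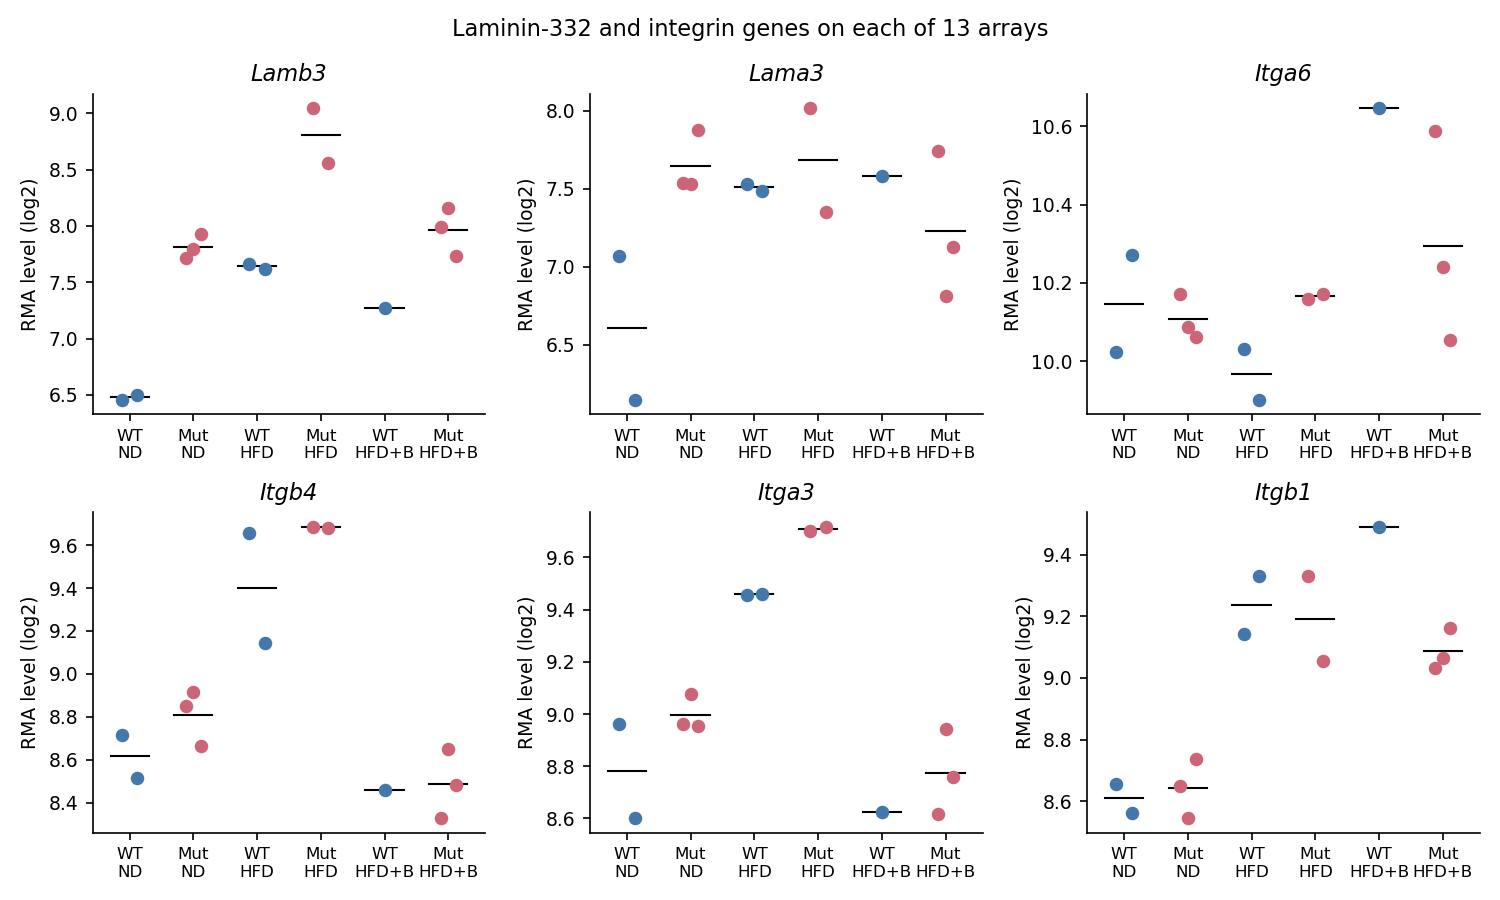
RMA levels (log2) of the 6 genes on each array, by genotype (WT, wild type; Mut, mutant) and diet (ND, normal; HFD, high-fat; HFD+B, high-fat with butyrate). Points are arrays and lines are group means. Lamb3 separates the genotypes in every diet, and Itgb4 and Itga3 are highest on the 4 high-fat arrays.

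Within single diets the Lamb3 difference was 1.34 ± 0.16 on normal diet (2.53-fold, limma adjusted p = 0.015, where 0.0242% of genes passed) and 1.16 ± 0.17 on high-fat diet (2.24-fold, adjusted p = 0.0659, where 0.0403% passed). It was 0.69 ± 0.20 with butyrate (1.61-fold, adjusted p = 0.815, where 0 of 12393 genes passed and 749 had an unadjusted p under 0.05). The normal-diet call was lost without mutant array 1, 2 or 3 (adjusted p = 0.115, 0.101 and 0.122), and on high-fat diet Lamb3 passed without mutant array 2 (adjusted p = 0.0229). The genotype difference on high-fat diet minus that on normal diet was -0.17 ± 0.24 (adjusted p = 0.947), and that with butyrate minus that on high-fat diet -0.47 ± 0.27 (adjusted p = 0.921). The 95% intervals of these changes, -0.69 to 0.34 and -1.06 to 0.11, do not show that the genotype difference was the same size in the 3 diets. In each of these 2 interaction tests 0.00807% of genes passed.

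Lama3, the alpha chain that joins Lamb3 in laminin-332, did not pass in any comparison. On normal diet its levels were 7.07 and 6.15 in wild type and 7.53, 7.53 and 7.88 in mutants, without overlap, as held for 16.7% of all genes in this direction. The difference there was 1.04 ± 0.31 (unadjusted p = 0.0062 and adjusted p = 0.194 by limma), and the wild-type arrays lay farther apart from each other than the mutant arrays did. On high-fat diet the values were 7.53 and 7.48 against 8.02 and 7.35, and with butyrate 7.58 against 7.74, 6.81 and 7.12. Genotypes overlapped in both of these diets. Over all diets the difference was 0.39 ± 0.24 (95% interval -0.13 to 0.91, adjusted p = 0.465).

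The 4 integrin genes did not pass between genotypes in any diet or over diets. Over all diets the differences were -0.04 ± 0.10 for Itga6, 0.18 ± 0.10 for Itgb4, 0.21 ± 0.08 for Itga3 and -0.10 ± 0.08 for Itgb1, with limma adjusted p between 0.175 and 0.897. Itga3 came nearest, with an unadjusted p = 0.0145 by limma and 0.0375 by the exact permutation within diets. On high-fat diet the mutant arrays lay above the wild-type arrays for Itga3 (9.70 and 9.72 against 9.46 on both), Itgb4 and Itga6, as held for 24.2% of all genes. With butyrate the single wild-type array lay above all 3 mutant arrays for Itgb1 (9.49 against 9.03 to 9.16) and Itga6 (10.65 against 10.05 to 10.59), as held for 28.0% of all genes. The 95% intervals bound the genotype effect at 0.37 for Itga3 and 0.39 for Itgb4, both below the lower bound of 0.86 for Lamb3, although the genes were not tested against each other.

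**Figure D2:**
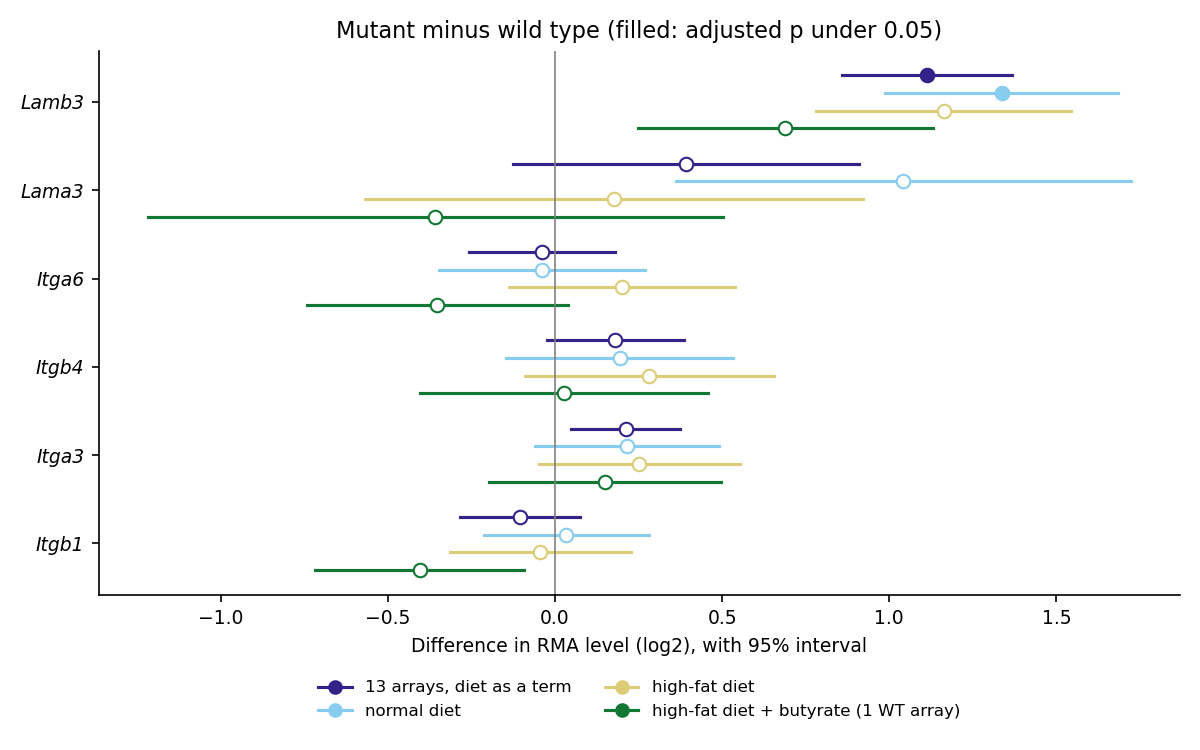
Mutant minus wild-type difference in RMA level (log2) for each gene, from 13 arrays with diet as a term and within each diet. Points are limma estimates, bars are 95% intervals and filled points have an adjusted p under 0.05. Lamb3 lies right of 0 in all 4 comparisons and is filled over diets and on normal diet.

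On high-fat diet both genotypes had higher Lamb3, Itgb4, Itga3 and Itgb1 than on normal diet. For Itgb1 this held in the probe set used but not in the next brightest, which differed by 0.01 in wild type and 0.05 in mutants. In wild type Lamb3 differed by 1.16 ± 0.17 (2.24-fold, limma adjusted p = 0.00247), Itgb4 by 0.78 ± 0.17 (adjusted p = 0.0152), Itga3 by 0.68 ± 0.14 (adjusted p = 0.0114) and Itgb1 by 0.63 ± 0.12 (adjusted p = 0.0103). These were 4 of 6 members, where 5.62% of all genes passed as higher. As the members were chosen with earlier results of these data known, this share is no independent result. In mutants the 4 differences were 0.99 ± 0.16 (adjusted p = 0.00227), 0.87 ± 0.15 (0.0037), 0.71 ± 0.12 (0.00351) and 0.55 ± 0.11 (0.0076), where 7.67% of genes passed as higher. The 2 comparisons use different arrays, but both set the high-fat array series against the normal-diet series.

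Itgb4, the signalling chain of the hemidesmosome receptor, read 8.72 and 8.52 on wild-type normal-diet arrays and 9.66 and 9.14 on wild-type high-fat arrays. In mutants it read 8.85, 8.91 and 8.66 on normal diet and 9.69 and 9.68 on high-fat diet. All 4 high-fat arrays thus lay above all 9 others. Itga3, the alpha chain of the second receptor, read 8.96 and 8.60 in wild type on normal diet and 9.46 on both high-fat arrays. In mutants it went from 8.96, 9.08 and 8.95 to 9.70 and 9.72, again with all 4 high-fat arrays above the rest. The share of all genes with all 4 high-fat arrays above the other 9 was not counted. Within each genotype the arrays of the 2 diets did not overlap for Lamb3, Itgb4, Itga3 and Itgb1, as held for 22.5% of all genes in wild type and 23.7% in mutants. Itgb1, the beta chain shared by many integrins, went from 8.66 and 8.56 to 9.14 and 9.33 in wild type, and from 8.65, 8.54 and 8.74 to 9.33 and 9.06 in mutants.

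Itga6, the alpha chain that pairs with Itgb4, did not follow this pattern. It read 10.02 and 10.27 in wild type on normal diet against 10.03 and 9.90 on high-fat diet (-0.18 ± 0.15, limma adjusted p = 0.501), and in mutants the difference was 0.06 ± 0.14 (95% interval -0.25 to 0.37, adjusted p = 0.826). Lama3 was higher on high-fat diet in wild type by 0.90 ± 0.34 without passing (adjusted p = 0.114), and it differed by 0.04 ± 0.31 in mutants (adjusted p = 0.955).

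Leaving out 1 wild-type array leaves a group with 1 array, which is then assumed to vary like the other groups, and some calls did not pass in such fits. Itgb4 differed by 0.53 without high-fat array 1 (adjusted p = 0.103) and by 0.69 without normal-diet array 2 (0.0722), and Itgb1 by 0.53 without high-fat array 2 (0.0855). Itga3 kept its size at 0.68 without either high-fat array (0.0578 and 0.0677) and differed by 0.50 without normal-diet array 2 (0.0553), while Lama3 differed by 1.36 and passed without normal-diet array 1 (0.0351). Among mutants Itgb1 differed by 0.41 without high-fat array 1 (0.0851), and the other 3 calls held without each array. With the epithelial mean as a covariate, Itgb4 and Itga3 missed the threshold in mutants (0.57, adjusted p = 0.0699, and 0.63, adjusted p = 0.0558) while Lamb3 and Itgb1 passed. In a fit of the 4 wild-type arrays alone, Lamb3 passed and the other 3 did not (adjusted p = 0.116 to 0.135). Acinar and gastric genes were also higher on high-fat diet in wild type (medians 4.03 and 3.06, with 0 of 8 and 0 of 6 past the threshold), and the 4 wild-type calls held with either mean as a covariate. Of the other marker genes in wild type, 1 fibroblast and 1 endothelial gene passed as higher and 1 squamous gene as lower. In mutants the acinar genes were lower on high-fat diet (median -2.49, higher for 0 of 8, with 0 of 8 past the threshold), and the gastric median was -0.12. There 2 of 6 fibroblast genes passed as lower, and 1 smooth muscle, 1 endothelial and 1 leukocyte gene as higher. The 4 mutant calls held with the acinar or the gastric mean as a covariate.

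**Figure D3:**
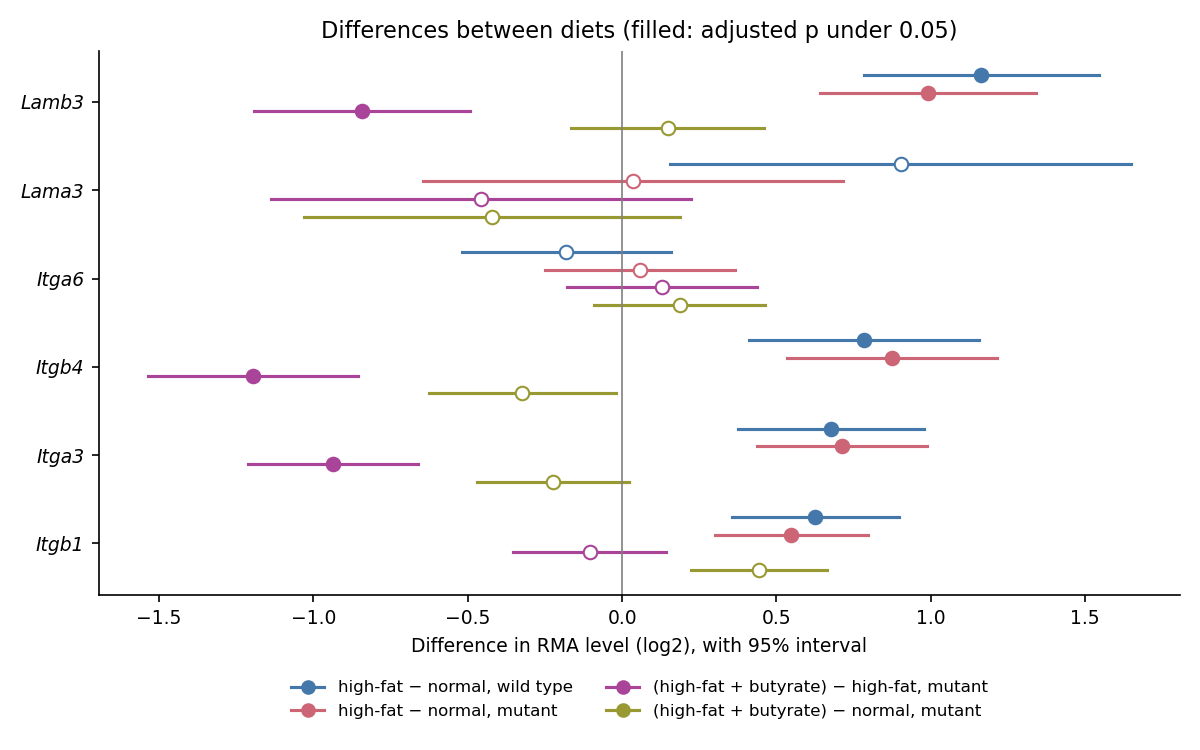
Differences in RMA level (log2) between diets for each gene, within wild type or within mutants. Points are limma estimates, bars are 95% intervals and filled points have an adjusted p under 0.05. Lamb3, Itgb4, Itga3 and Itgb1 are right of 0 on high-fat diet in both genotypes, and the first 3 are left of 0 where butyrate was added.

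In mutants given butyrate with the high-fat diet, Itgb4, Itga3 and Lamb3 were lower than on high-fat diet alone. Itgb4 fell by 1.20 ± 0.15 (2.29-fold lower, limma adjusted p = 0.000532), to 8.33, 8.65 and 8.48. Itga3 fell by 0.94 ± 0.12 (1.91-fold lower, adjusted p = 0.000633), to 8.62, 8.94 and 8.76. Lamb3 fell by 0.84 ± 0.16 (1.79-fold lower, adjusted p = 0.00403). For each of the 3 genes the arrays of the groups did not overlap, as held for 21.8% of all genes in this direction, and 8.78% passed as lower.

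Itgb1 did not pass in this comparison (-0.11 ± 0.11, adjusted p = 0.557), and its butyrate arrays read 9.03, 9.07 and 9.16. Lama3 (-0.46 ± 0.31, adjusted p = 0.331) and the Itga6 probe set used (0.13 ± 0.14, adjusted p = 0.57) did not pass either. Cell type markers moved in this comparison too. Of the 11 epithelial markers 10 were lower with butyrate (median -0.05, 0 of 11 past the threshold), and the arrays of the groups did not overlap in the epithelial mean. The gastric median was -1.32 and the acinar median -0.74, again with 0 genes past the threshold. Of the smooth muscle genes 2 of 6 passed as lower, of the fibroblast genes 2 as higher and 2 as lower, and of the leukocyte genes 2 as higher and 1 as lower. With the epithelial mean as a covariate the differences were -0.83 for Itgb4 (adjusted p = 0.0304), -0.84 for Itga3 (0.0333) and -0.95 for Lamb3 (0.0489). The 3 calls also held with the acinar or the gastric mean as a covariate. Without mutant high-fat array 1 the Lamb3 difference was -0.60 and its adjusted p 0.0511. Each of these differences again sets one array series against another.

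Mutants on high-fat diet with butyrate were then set against mutants on normal diet, where 1.57% of all genes and 0 of 6 members passed by limma, with an unadjusted p of 0.0392 for Itgb4 and 0.00103 for Itgb1. Lamb3 differed by 0.15 ± 0.14 (95% interval -0.16 to 0.46, adjusted p = 0.642). Every butyrate array lay below every normal-diet array for Itgb4 (-0.32 ± 0.14, adjusted p = 0.264) and Itga3 (-0.22 ± 0.11, adjusted p = 0.337), as held for 11.5% of all genes. For Itgb1 every butyrate array lay above (0.44 ± 0.10, adjusted p = 0.0575), as held for 12.9%. This comparison and the 2 preceding ones share mutant arrays.

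By group mean, Lamb3 was highest in mutants on high-fat diet (8.80 ± 0.34 SD, n = 2), followed by mutants with butyrate (7.96 ± 0.22, n = 3), mutants on normal diet (7.81 ± 0.11, n = 3), wild type on high-fat diet (7.64 ± 0.03, n = 2), the wild-type butyrate array (7.27) and wild type on normal diet (6.48 ± 0.03, n = 2). Mutants with butyrate and mutants on normal diet overlapped, and every other pair of neighbours in this order was separate. Itgb4 and Itga3 had the same order of groups, with mutants on high-fat diet first (9.68 and 9.71), then wild type on high-fat diet (9.40 and 9.46), mutants on normal diet (8.81 and 8.997), wild type on normal diet (8.62 and 8.78), mutants with butyrate (8.49 and 8.77) and the wild-type butyrate array (8.46 and 8.62). From the third group on, neighbours overlapped in both genes. Itgb1 was highest on the wild-type butyrate array (9.49) and lowest in the 2 normal-diet groups (8.64 and 8.61), which overlapped. The means of Itga6 spanned 9.97 to 10.65 and those of Lama3 6.61 to 7.68, with overlaps between most neighbours.

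Where a gene had several probe sets, they moved the same way for Itga3 and differed for Itgb1 and Itga6. The other 2 Itga3 probe sets were higher on high-fat diet in mutants, by 0.70 ± 0.18 and 1.55 ± 0.205 (limma adjusted p = 0.019 and 0.000429 over all 20380 probe sets). In wild type they differed by 0.65 ± 0.20 (0.0536) and 1.17 ± 0.22 (0.00595), and with butyrate in mutants they were lower (-1.17 and -1.87, adjusted p = 0.000967 and 9.0e-05). For Itgb1 the next brightest probe set, with group means of 8.11 to 8.54, differed by 0.01 on high-fat diet in wild type and 0.05 in mutants (0.965 and 0.827), so that the high-fat difference of Itgb1 rests on the probe set used. The other 4 had group means under 5.09, the 30th percentile of mean level over all genes, and 1 of them was higher in mutants on high-fat diet (0.81, adjusted p = 0.00285) and another lower in wild type (-0.36, adjusted p = 0.0495). Itga6 had a second probe set that was lower with butyrate in mutants (-1.15 ± 0.24, adjusted p = 0.0052), with a mean of 8.78 on high-fat diet and 7.63 with butyrate, where the brighter one did not pass.

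**Figure D4:**
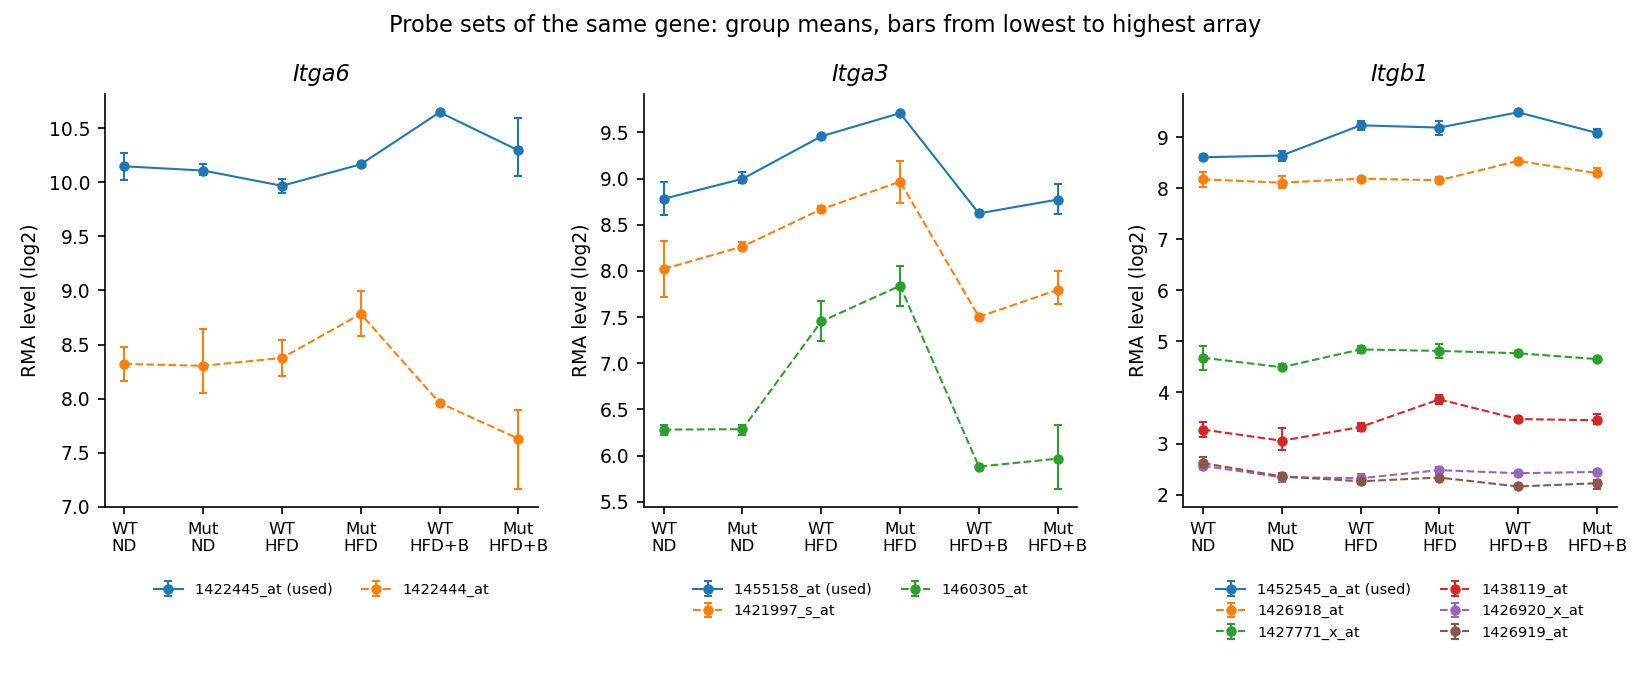
Group mean RMA levels (log2) of every probe set of Itga6, Itga3 and Itgb1, with bars from the lowest to the highest array of a group. Solid lines are the probe sets used. The 3 Itga3 probe sets follow each other, those of Itga6 diverge where butyrate was given, and the second brightest Itgb1 probe set stays near its normal-diet level on high-fat diet.

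Other genes of laminins, hemidesmosomes, integrins, basement membrane, integrin adaptors and laminin-processing proteases were set beside these members in 6 lists of 66 genes, of which 60 were measured. The lists too were chosen with earlier results of these data known. Between genotypes over all diets 0 of the 60 passed by limma, and the list medians lay between -0.02 and 0.054, against 0.005 for all genes. Unadjusted p was under 0.05 for 8 of the 60 (13.3%), against 16.5% of all genes. In the 9 arrays without butyrate, where 4.63% of all genes passed, 4 of the 60 did. Krt18, a keratin filament protein of simple epithelia to which hemidesmosome plaques attach, was higher in mutants (0.56 ± 0.11, adjusted p = 0.0233). Itgae and Itgb7, which form the integrin of intraepithelial lymphocytes, were lower (-0.55 ± 0.12 and -0.42 ± 0.10, adjusted p = 0.0331 and 0.0452), as was the matrix protease Mmp2 (-0.59 ± 0.13, adjusted p = 0.0364). The mean of 6 leukocyte markers was lower too, at 6.32 to 6.82 on mutant arrays of these 2 diets against 7.08 to 7.30 in wild type, and its part in the Itgae and Itgb7 differences was not tested. In this fit Lamb3 differed by 1.26 ± 0.11 (adjusted p = 0.000434).

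Over all 13 arrays Krt18 narrowly missed the threshold (0.49 ± 0.11, adjusted p = 0.0524), at 10.62 and 10.69 in wild type on normal diet and 11.12 to 11.36 in mutants. Among the other laminin chains the smallest p belonged to Lama5, a laminin chain of mature basement membranes (0.26 ± 0.11, adjusted p = 0.234), and Lamb1 (-0.23 ± 0.11, adjusted p = 0.331). Col4a6 (-0.26 ± 0.09, adjusted p = 0.149) and the heparan sulfate proteoglycan Agrn (0.16 ± 0.08, adjusted p = 0.306) led the basement membrane list. Src, a kinase that acts downstream of integrins, had a difference of 0.30 ± 0.08 (adjusted p = 0.0866), and the adaptor Lims1 one of -0.21 ± 0.08 (adjusted p = 0.195).

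Between diets more of these genes passed. In mutants on high-fat against normal diet 6 of the 60 were higher and 3 lower, where 7.67% and 10.1% of all genes were. Src was higher by 1.18 ± 0.13 (adjusted p = 0.000412) and Lama5 by 0.63 ± 0.15 (adjusted p = 0.015), whereas Lamb1 was lower (-0.64 ± 0.17, adjusted p = 0.0214). In wild type 4 of the 60 were higher and 0 lower, where 5.62% and 5.42% of all genes were, among them Src by 1.36 ± 0.15 (adjusted p = 0.000458). With butyrate added in mutants 5 of the 60 were higher and 13 lower, where 12.9% and 8.78% of all genes were. There Src was lower by -1.31 ± 0.13 and Lama5 by -0.49 ± 0.15 (adjusted p = 0.000138 and 0.0363), and Lamb1 was higher by 0.78 ± 0.17 (adjusted p = 0.00706). The first and the last of these comparisons share the mutant high-fat arrays.

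**Figure D5:**
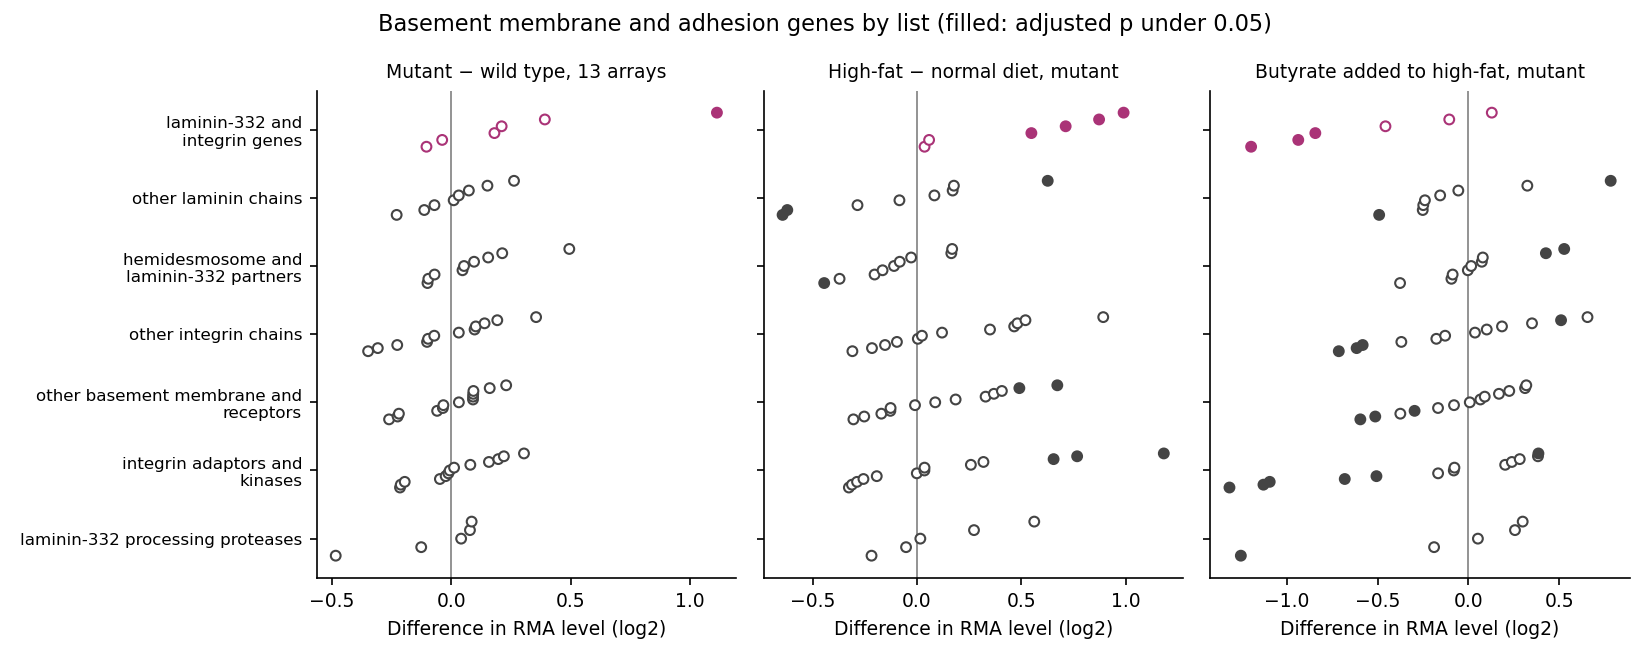
Differences in RMA level (log2) of the 6 genes (top row) and of 60 genes in 6 lists, in 3 comparisons. Each point is a gene and filled points have a limma adjusted p under 0.05. Over genotypes Lamb3 is the 1 filled point, whereas both diet comparisons have filled points in several lists.

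The genes whose levels followed a member most closely were found by Pearson correlation over the 13 arrays, which share diet and array series, as a description. For Lamb3 they were Polr3d (r = 0.93), Rnh1 (0.92), Lgals3, the galactose-binding lectin galectin-3 (0.92), Nt5e (0.91) and Tnk1 (0.91). In wild type Lgals3 read 12.19 to 12.20 on normal diet, 12.35 to 12.43 on high-fat diet and 12.51 on the butyrate array. In mutants it read 12.37 to 12.54, 12.64 to 12.73 and 12.44 to 12.63. The genotypes were separate on normal and on high-fat diet, as held for 16.7% and 24.2% of all genes in this direction, and overlapped with butyrate. Lgals3 was picked for following Lamb3, which itself separates the genotypes, so its separation is no independent result. Itga3 was among the 5 genes nearest to Itgb4 (r = 0.96), after Pigt, Zc3h18, Kdm5a and Arnt, and 183 genes had an r over 0.9 with Itgb4. Those nearest to Itga3 were Arhgap27, Atp6v0a1, Pik3r2, Arnt and Cdk18 (r = 0.97 to 0.98), among 239 genes over 0.9. Itgb1 was followed most closely by Ankrd40 (r = 0.97), Igfbp3, Nfya, Srxn1 and Ksr1, and Itga6 by Prrx1 (r = 0.91), Dyrk1a, Rp2, Inpp5b and Cdc37l1. For Lama3 0 genes had an r over 0.9, and Bnip3 (r = 0.78), Fam43a, Ppl, Ptpn9 and Rabep2 came nearest. Spearman rank correlations of the named genes with their members ran from 0.28 (Rabep2 with Lama3) to 0.97 (Kdm5a with Itgb4). Not all of them thus followed a member by rank as closely as by r.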

How the data were processed

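Duodenal RNA from 13 samples was measured on Affymetrix mouse arrays. Per the submitters' processing notes, the authors made the deposited log2 values with Affymetrix Expression Console 1.1 and RMA, which corrects background, normalizes between arrays and summarizes probes into probe sets. RMA fits all arrays together, and the values carry no depth, so the number of arrays limits the precision. Array medians lay between 6.04 and 6.14, and 0 sample columns were left unused. The labelling kit in the labels is a whole-transcript one, although the probe sets carry names of a 3' array.

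Of 22690 probe sets 20380 had 1 symbol, 691 several and 1555 none, besides 64 controls. The brightest probe set per gene gave 12393 genes, fitted with limma 3.58.1 (R 4.3.3, lmFit, contrasts, eBayes with an intensity trend, Benjamini-Hochberg over all genes at 0.05, two-sided). Genotype over diets used diet and genotype terms, and other comparisons 6 group means, so that the lone wild-type butyrate array borrows its spread from the other groups. The labels do not state whether an array held 1 animal or a pool, and p-values reflect the spread among arrays, which may be technical. The model scripts were tested on simulated data.

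Members and gene lists were chosen with earlier results of these data known. Named besides the members were, per list, genes past the threshold between genotypes over diets or without butyrate, otherwise the 2 with the smallest p, and per member the 5 genes with the highest correlation. Alternatives changed the normalization, the filter on dim genes, the probe set, the variance prior, the arrays fitted, the weight of the diets and the replicate block, and left out single arrays. List means as covariates were added after seeing the data.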

Additional observations from a re-analysis of the deposited data

Results flagged for a closer look

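The genotype difference of Itga6, the alpha chain of the hemidesmosome receptor, lay on opposite sides with and without butyrate on every array of the high-fat diets. On high-fat diet both mutant arrays (10.16 and 10.17) stood above both wild-type arrays (10.03 and 9.90), and with butyrate all 3 mutant arrays (10.59, 10.24 and 10.05) stood below the single wild-type array (10.65). The first separation held for 24.2% of all genes and the second for 28.0%. The share of genes with both was not counted. The difference between the 2 genotype differences was -0.551 on the log2 scale (SE 0.235), with an unadjusted p of 0.0386 and an adjusted p of 0.855 by limma, so it did not pass. The second Itga6 probe set gave -0.74 with an adjusted p of 0.891.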

How the results depend on the processing

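The Lamb3 genotype call over diets held under all 10 other settings and without each array, while the number of genes called there was 127 as reported, 2 to 329 without single arrays, 58 without the intensity trend, 574 without butyrate, 5 with diets weighted equally, 345 with the acinar covariate and 1 with the epithelial covariate. Genes called on normal diet (3) became 0 to 174 without single arrays and 36 from the compared arrays alone. On high-fat diet (5) they became 3 without dim genes and 3 to 11 without single arrays. High-fat against normal diet gave 1368 genes in wild type, 439 to 1520 without single arrays, 116 from the compared arrays alone and 821 with the epithelial covariate. In mutants it gave 2197, 990 to 1522 without single arrays and 808 with that covariate. Butyrate added gave 2685, 1317 to 3041 and 663, and butyrate against normal diet 195 and 39 to 627 without single arrays. The 2 interactions (1 gene each) gave at most 10 without single arrays and at most 2 otherwise. Members called in the wild-type diet comparison were 1 from the compared arrays alone and 2 to 5 without single arrays. They were 2 in mutants with the epithelial covariate, 0 to 1 between genotypes without single arrays on either the normal or the high-fat diet, and 1 for butyrate against normal diet without dim genes (Itgb1, adjusted p = 0.0459). Averaging all probe sets took Itgb1 on high-fat diet to 0.04 in wild type (adjusted p = 0.844) and 0.31 in mutants (0.0502).

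Whether replicate numbers pair the arrays was not settled. Same-numbered deviations from the group mean correlated at -0.243 and -0.326 among normal-diet arrays and at 0.012 among high-fat arrays. In a group of 2 arrays these deviations are mirror images of each other, so the correlations cannot decide it. The wild-type butyrate array carries no number, so the fits with the number as a replicate block left it out. They called 221 genes between genotypes over diets, where leaving out that array alone called 291. On normal diet they called 0 genes and 0 members (Lamb3 1.37, limma adjusted p = 0.115). The block changed no other member's call. In these fits the sign of Itga6 turned over diets (0.11), on normal diet (0.032) and between the high-fat and normal diets in mutants (-0.013). That of Itgb1 turned on normal diet (-0.0079). Without the wild-type butyrate array and with no block, Itga6 over diets was already 0.069.

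Other signs that turned belonged, with the exception of Itgb1 on high-fat diet, to differences that had not passed. Itga6 over diets was 0.0045 with averaged probe sets, 0.069 without butyrate and 0.047 in its other probe set. That probe set gave 0.055 on high-fat diet in wild type, -1.15 with butyrate added and -0.67 for butyrate against normal diet, and averaging gave -0.51 and -0.24 for the last 2. Itgb1 on normal diet was -0.013 after quantile normalization, -0.15 averaged and -0.066, -0.26, -0.22, -0.19 and -0.22 in its other probe sets. Between genotypes its other probe sets gave 0.0885 over diets, 0.072, 0.16 and 0.54 on high-fat diet (0.11 averaged) and 0.064 and 0.026 with butyrate. Between diets they gave -0.36 and -0.24 in wild type, -0.0225 in mutants, 0.14 with butyrate added and -0.13 for butyrate against normal diet. For the high-fat interaction they gave 0.035, 0.33, 0.38, 0.16 and 0.76 (0.265 averaged). Lama3 on high-fat diet in mutants was -0.01 with the acinar covariate. Without single arrays the following differences spanned 0. Itga6 ran from -0.085 to 0.069 over diets, -0.16 to 0.084 on normal diet and -0.019 to 0.25 with butyrate added. Itgb1 ran from -0.013 to 0.083 on normal diet, -0.18 to 0.093 on high-fat diet and -0.24 to 0.031 with butyrate added. Lama3 ran from -0.16 to 0.51 between genotypes on high-fat diet and -0.30 to 0.37 between diets in mutants, and Itgb4 from -0.054 to 0.11 between genotypes with butyrate. Interactions ran from -0.42 to 0.068 for Lamb3, -0.17 to 0.34 for Itgb4, -0.14 to 0.22 for Itga3 and -0.21 to 0.0596 for Itgb1 on high-fat diet, and -0.51 to 0.0013 for Itgb4 with butyrate. The cause of these turns was not tested.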

Other observations

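Of the 60 other adhesion genes, 4 passed in all 3 diet comparisons, higher on high-fat than on normal diet in each genotype and lower with butyrate added in mutants. They were Src, Zyx, Tns1 and Dag1, and the genes named here were chosen after their values were seen. How many of all genes passed in this way was not counted, and both mutant comparisons use the same high-fat arrays. Zyx, an actin-binding protein of focal adhesions, was higher on high-fat than on normal diet in wild type (1.09 ± 0.16, limma adjusted p = 0.00231) and in mutants (0.65 ± 0.15, 0.0112), and lower with butyrate added in mutants (-1.13 ± 0.15, 0.000532). Tns1, the focal adhesion protein tensin, differed by 0.72, 0.77 and -1.09 in the same comparisons (adjusted p = 0.0367, 0.0131 and 0.00179). Dag1, the laminin receptor dystroglycan, differed by 0.64, 0.49 and -0.30 (0.00371, 0.00525 and 0.0428). Bcam, a receptor for the laminin chain Lama5, differed by 0.52, 0.67 and -0.59 and missed the threshold in wild type (0.071, 0.0126 and 0.0184). Mmp14, a membrane-bound protease that cleaves laminin-332, was lower with butyrate added (-1.25 ± 0.18, 0.000919), and its high-fat differences of 0.61 and 0.56 missed the threshold (0.071 and 0.0513). Other listed genes went the opposite way. Cd151, a tetraspanin that binds laminin-binding integrins, was lower on high-fat diet in mutants (-0.44 ± 0.11, 0.0218) and higher with butyrate added (0.43 ± 0.11, 0.0221), with -0.12 in wild type (0.576). Vcl, the focal adhesion protein vinculin, and the integrin chain Itgav were higher with butyrate added (0.39 and 0.51, 0.0183 and 0.0479), and their high-fat differences in mutants of -0.26 and -0.31 missed the threshold (0.0999 and 0.228). In these comparisons diet and array series cannot be told apart.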
